A study of Mus musculus with 2 samples.

Results

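Open chromatin in the gastrocnemius muscle was examined at the sites that lie farthest from annotated genes. A remote site was a DNase-seq peak of replicate 1 on chromosomes 1 to 19 that overlapped a peak of replicate 2 by 1 bp or more, with a midpoint outside every gene of GENCODE M21 and over 100 kb from every annotated transcript start. Of 93861 shared autosomal peaks, 1253 (1.33%) met this rule. The rule used position and presence in both libraries and no measured height.

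DNase I cuts DNA where nucleosomes have given way to bound proteins, so its cut sites mark promoters, enhancers and insulators. Gene deserts are long intervals without genes, and many lie beside genes for developmental regulators, whose enhancers can act over long distances. Short stretches inside an open site that are spared from cutting, called footprints, can mark the bases a protein covers, and CTCF, a zinc-finger protein that anchors chromatin loops, leaves a wide one.

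The tissue came from male B6CASTF1/J mice, the first-generation cross of C57BL/6J and CAST/EiJ, aged 10 days. The labels give 3 males per sample and 1 donor record for both samples, and whether tissue of the 3 males was pooled is not stated in them. There was 1 group with 2 libraries, labelled as biological replicates 1 and 2 and both as technical replicate 1. No condition was compared, sites are not replicates, and no test was run, so values are given for both libraries as a description. Replicate 1 had 123255 peaks and 310961 footprints, and replicate 2 had 150088 and 373154. Promoters of the muscle were open: all 10 genes of a fast-fibre list and all 8 of a myogenic list had an open promoter in both libraries, against 1 of 14 hepatocyte genes. The tissue is a mixture, with 14 of 16 endothelial, 9 of 10 fibroblast and tendon, 12 of 18 neuronal and 4 of 16 macrophage and lymphocyte genes open in both, and fewer cells with a site cannot be told apart from weaker opening per cell.

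Sequences of the sites that the results turn on are given in the mm10 build, plus strand, 5′ to 3′, read from the matching RefSeq assembly. In the first pair, the highest remote site and the highest of those in an enhancer curated by RefSeq, capitals mark the bases under a footprint in both libraries, which come to 101 of 160 and 50 of 180 bases.
Highest site, between Ddx18 and Dpp10, chr1:122357141-122357300: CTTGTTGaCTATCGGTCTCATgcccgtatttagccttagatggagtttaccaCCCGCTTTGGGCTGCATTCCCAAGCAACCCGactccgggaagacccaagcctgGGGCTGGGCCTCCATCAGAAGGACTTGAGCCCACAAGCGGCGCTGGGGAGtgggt
Enhancer site upstream of Bmper, chr9:23083641-23083820: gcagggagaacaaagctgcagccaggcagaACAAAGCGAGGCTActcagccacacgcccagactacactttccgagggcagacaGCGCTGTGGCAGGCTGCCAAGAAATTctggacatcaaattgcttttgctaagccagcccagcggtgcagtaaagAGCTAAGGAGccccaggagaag

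The next site is shown because it overlaps a transfer RNA gene that GENCODE's gene file does not hold. Capitals mark the first 26 of the 72 bases of that gene.
Site at the tRNA gene n-TEttc7, chr7:58399141-58399340: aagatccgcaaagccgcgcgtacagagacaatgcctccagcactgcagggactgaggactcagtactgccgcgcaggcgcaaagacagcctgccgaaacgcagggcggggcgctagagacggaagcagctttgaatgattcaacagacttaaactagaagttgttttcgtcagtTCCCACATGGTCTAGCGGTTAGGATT

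For CTCF, 2 of the highest sites with a full core under a footprint in both libraries are shown, with the 14 letters of the core in capitals.
CTCF core site between Gfra2 and Gm9195, chr14:72372021-72372200: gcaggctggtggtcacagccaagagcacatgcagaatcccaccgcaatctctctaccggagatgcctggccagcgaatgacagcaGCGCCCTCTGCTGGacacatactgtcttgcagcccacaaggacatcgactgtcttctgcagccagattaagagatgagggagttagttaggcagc
CTCF core site between Cdh26 and Cdh4, chr2:178665121-178665280: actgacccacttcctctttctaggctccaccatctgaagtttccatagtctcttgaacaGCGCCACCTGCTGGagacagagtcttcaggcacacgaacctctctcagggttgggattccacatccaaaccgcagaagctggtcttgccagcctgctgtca

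For the E-box CAGCTG, a sequence that reads the same on both strands and that MyoD-family factors bind, 2 of the highest sites with it under a footprint in both libraries are shown, together with the site that held the most copies. Capitals mark CAGCTG.
E-box site beside Cdh5, chr8:103825401-103825580: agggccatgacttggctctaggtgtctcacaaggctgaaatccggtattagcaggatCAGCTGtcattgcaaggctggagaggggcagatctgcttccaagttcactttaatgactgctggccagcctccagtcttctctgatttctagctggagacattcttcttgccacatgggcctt
E-box site beside Slc4a3, chr1:75798901-75799060: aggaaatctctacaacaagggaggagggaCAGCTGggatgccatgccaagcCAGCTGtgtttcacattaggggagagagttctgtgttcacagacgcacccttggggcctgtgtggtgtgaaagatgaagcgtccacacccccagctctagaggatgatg
Site with repeated E-boxes beside Olfr1505, chr19:14180223-14180393: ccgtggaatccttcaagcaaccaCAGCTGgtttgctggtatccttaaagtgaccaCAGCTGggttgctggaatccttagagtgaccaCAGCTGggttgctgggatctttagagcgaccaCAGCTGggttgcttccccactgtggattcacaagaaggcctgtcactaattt

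For AP-1, whose consensus was searched as TGANTCA, a site with the motif under a footprint in both libraries is shown, with the motif in capitals.
AP-1 site beside Maf, chr8:115854621-115854780: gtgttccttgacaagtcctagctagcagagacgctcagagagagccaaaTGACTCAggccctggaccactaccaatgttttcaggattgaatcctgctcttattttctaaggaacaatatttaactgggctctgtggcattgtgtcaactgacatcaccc

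The last sequence is the farthest site that held a footprint in both libraries, 463 kb from any start. Capitals mark the E-box CAGCTG, the sequence TTGGCA that nuclear factor I proteins bind, and the RUNX sequence TGTGGTT, here on the minus strand.
Remote site nearest B230118H07Rik, chr2:101107701-101107880: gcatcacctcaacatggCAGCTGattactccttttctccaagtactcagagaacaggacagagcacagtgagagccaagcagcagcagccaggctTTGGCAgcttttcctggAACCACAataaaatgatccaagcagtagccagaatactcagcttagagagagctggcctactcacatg

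Open sites thinned out steadily with distance from genes and did not stop. Outside genes, shared peaks fell from 412 per Mb of sequenced bases within 0.5 kb of a start to 38.2 per Mb at 0.5 to 5 kb, 14.1 at 50 to 100 kb, 8.37 at 100 to 200 kb and 5.16 at 200 to 500 kb. Beyond 500 kb there were 2 sites in 0.7228 Mb, or 2.77 per Mb. The sequence from which remote sites could come, called the territory here, covered 166.3 Mb, which is 6.94% of the sequenced autosomes. It held 7.53 remote sites per Mb, against 41.5 shared peaks per Mb elsewhere, a ratio of 5.51. The territory was 38.5% GC against 41.9% for all autosomes, and 40.2% of it was soft-masked repeat against 33.5%. Inside long genes the density at the same distances was higher, at 15.3 per Mb at 100 to 200 kb and 11 per Mb at 200 to 500 kb.

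**Figure D1:**
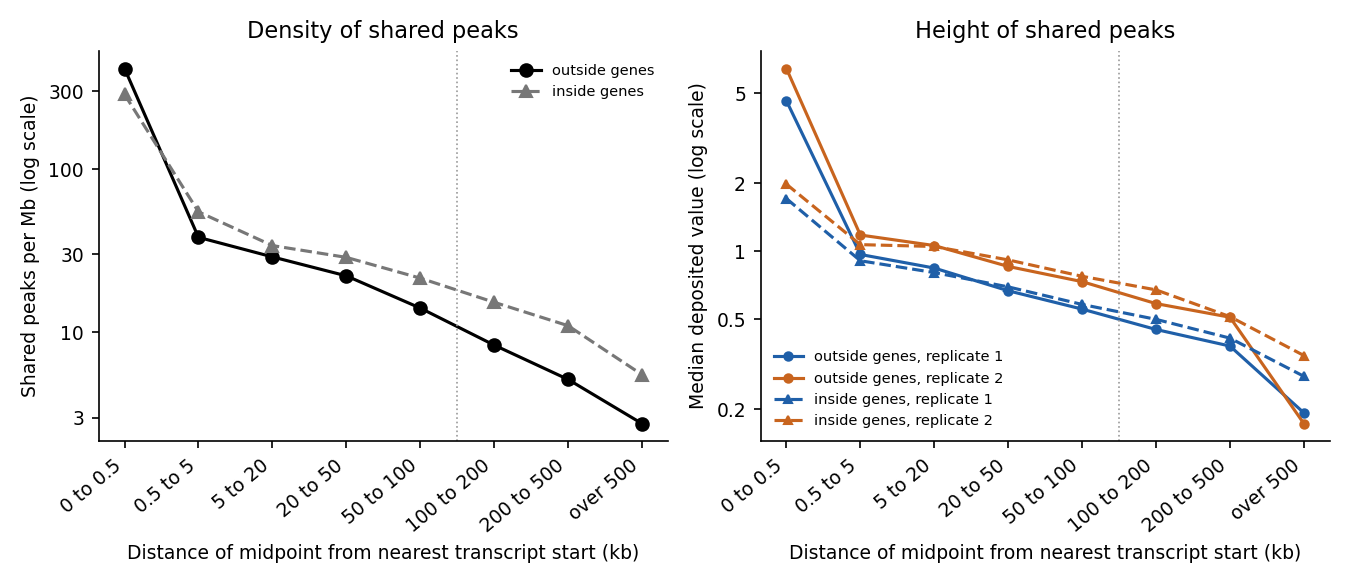
Shared peaks per Mb of sequenced bases (left) and their median deposited value (right), both on log scales, in bins of distance from the nearest transcript start, outside genes (circles) and inside genes (triangles). The dotted line marks 100 kb, beyond which the circles are the remote sites, whose density outside genes goes from 8.37 to 2.77 per Mb.

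The median remote site lay 138 kb from the nearest transcript start of any kind, and 260 kb from the nearest protein-coding start. From a protein-coding start, 249 sites lay over 500 kb away and 56 over 1 Mb, with the farthest at 2460 kb. The boundary at 100 kb cut through a gradual change: the 319 intergenic sites at 90 to 100 kb had median values of 0.5 and 0.651, and the 241 remote sites at 100 to 110 kb had 0.522 and 0.687. By chromosome the density ran from 4.57 sites per Mb of territory on chromosome 6 to 14.4 on chromosome 7. The gene set decides how many sites count as remote. Without pseudogenes among the gene models 2397 sites met the rule, and with protein-coding genes alone 8825 did.

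Remote sites were mostly low, with a long upper tail. The deposited value is a signal whose scale is not stated in the labels, and its median over remote sites was 0.446 in replicate 1 and 0.581 in replicate 2, against 0.963 and 1.18 over the other shared peaks. Quartiles were 0.299 and 0.745 in replicate 1 and 0.352 and 1.02 in replicate 2, and the range was 0.141 to 25.4 and 0.135 to 15. In each library the values were whole multiples of 1 small step, and if 1 step is 1 tag the median site rested on 82 and 99 tags, a counting error of 11% and 10.1%. Only 17.2% of remote sites in replicate 1 and 20.4% in replicate 2 exceeded the median of the other shared peaks. The median of promoter-proximal peaks, those within 500 bp of a start, was exceeded by 55 and 54 remote sites.

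The highest remote site, chr1:122357141-122357300 between Ddx18 and Dpp10, had values of 25.4 and 15. It stood 15th among all 93861 shared peaks in replicate 1 and 2076th in replicate 2. None of its bases is soft-masked, it held 3 footprints in each library, and no RefSeq transcript starts within 152 kb of it. Soft-masking does not mark every sequence with copies elsewhere in the genome. Whether this site has such copies, and whether its reads could be misplaced, was not examined. Near its centre it held the TEAD sequence GGAATG on the minus strand, inside the third of the capital runs printed above. TEAD proteins are transcription factors of the Hippo pathway. The 6 letters of this sequence were present in 11.3% of remote sites and in 8.33% of territory windows. Binding of a TEAD protein at the site was not measured.

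The 12 highest sites with at most 50% repeat were named by rule, and the next 4 of them were high in both libraries. The site chr1:102628161-102628320, which is 2140 kb from the start of Cdh20, a cadherin gene, had values of 7.31 and 8.33. The site chr4:9097161-9097340 between Chd7, which encodes a chromatin remodeller, and Clvs1 had 8.18 and 5.56. The site chr13:104518361-104518560 beside Adamts6, a metalloprotease gene, had 5.14 and 6.9.

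The tRNA site, chr7:58399141-58399340, had values of 4.63 and 6.03 and 4 footprints in each library. It overlapped n-TEttc7, a gene for a glutamate transfer RNA on the plus strand at chr7:58399315-58399386. It was the only remote site within 500 bp of any of the 386 tRNA genes that RefSeq places on these chromosomes.

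The remaining 7 of the 12 lay beside Nfe2l3, Mpdz, Eif4g2, Gk2, Dusp10, Bmper and Adamts20, with values between 3.72 and 5.95. Of the 12 sites, 7 had the higher deposited value in replicate 1, and all 12 held a footprint in both libraries. After the first, the 12 ranked in the top 3.82% to 13.5% of shared peaks in replicate 1 and the top 6.71% to 16.3% in replicate 2. Peaks of this height are common at promoters, where the upper quartile was 5.33 and 7.48.

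Few remote sites turned out to lie at starts of transcripts that another annotation holds. RefSeq placed a start within 500 bp of 20 remote sites (1.6%), and 16 of these starts belonged to long non-coding RNAs. These 20 had median values of 0.582 and 0.792, against 0.44 and 0.575 for the other 1233. The highest of them after the tRNA site lay 18 bp from the start of Gm41484 on chromosome 16, with values of 2.21 and 3.16, and 63 bp from the start of Gm39311 on chromosome 9, with 2.74 and 2.35. The bodies of RefSeq genes covered 118 remote sites (9.42%), and 653 sites (52.1%) were over 100 kb from every RefSeq start. Those 653 had medians of 0.37 and 0.505, and 64.5% of them held a footprint in both libraries.

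Curated enhancers overlapped 7 remote sites (0.559%) by 1 bp or more, against 0.663% of all shared peaks. RefSeq's functional element records are a small, literature-based set, so most enhancers are not in them. The highest of the 7 was the Bmper site printed above, chr9:23083641-23083820, with values of 4.06 and 5.22. Bmper encodes a secreted modulator of BMP signalling, and the site is 139 kb from its start, inside the VISTA enhancer record mm1696, a class of elements tested in transgenic mouse embryos. A second site of the same desert, 211 kb from the start of Bmper, lay in the record mm1296 with values of 0.544 and 0.698. Another 3 sites, with values of 0.343 and 0.54, 0.364 and 0.54, and 0.799 and 0.798, overlapped a Hedgehog-responsive enhancer. It is assigned to Hhip, which encodes a Hedgehog-binding inhibitor. The third of these sites overlapped only the edge of the record and had its midpoint outside it. The record mm554 near Intu, a cilium assembly gene, overlapped only the edge of a site at 0.952 and 0.816, whose midpoint lay outside it. The record mm1385 near Tox3 held 1 site at 0.359 and 0.311.

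Footprints were found in most remote sites, at shares that followed height. At least 1 footprint lay in 79.0% of remote sites in replicate 1 and in 78.7% in replicate 2, and 68.4% had one in both (95% Wilson interval 65.8% to 70.9%), against 82.6% of all shared peaks. In 10.7% no footprint was found in either library, against 5.23%. Ordered by the geometric mean of both values, the share with a footprint in both rose over 4 classes of equal size from 24.5% to 62.0%, 89.1% and 98.1%. Among peaks whose replicate 1 value lay between 0.299 and 0.745, the share was 74.4% of 630 remote sites, 73.2% of intergenic sites up to 100 kb from a start, 71.2% of sites inside genes and 58.7% of promoter-proximal ones. Only the replicate 1 value was matched here, and the replicate 2 medians of the 4 classes were 0.581, 0.61, 0.634 and 0.54. Footprints per kb of peak were 10.8 and 11.7, against 13.0 in both libraries over all shared peaks.

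The site with the most footprints, chr9:61645901-61646360 beside Tle3, which encodes a transcriptional corepressor, held 9 and 7 of them in 460 bp, with values of 1.48 and 3.14. Next came chr18:28077761-28078160 between Celf4 and Pik3c3, with 7 and 8 footprints and values of 1.81 and 2.44. The site chr4:9057741-9058000 beside Chd7 held 8 and 6 and had values of 1.07 and 4.07. The remaining pair lay beside Sipa1l2, with 6 and 7 footprints and values of 1.04 and 2.21, and beside Gm10295, with 7 and 5 and values of 0.789 and 1.12. None of these 5 sites had a match to any of the 20 motifs in the 150 bp around its midpoint. Bases outside that window, as in the 460 bp Tle3 site, were not searched. The widest site, chr9:51441941-51442480 beside 1810046K07Rik, was 540 bp wide with values of 0.533 and 0.933 and held an E-box, a TEAD and an NFI sequence, and the median width of remote sites was 160 bp. Next in width were sites of 520 bp beside Mki67 (1.13 and 2.08), 495 bp beside Slc35f3 (0.625 and 0.822) and 480 bp beside Ext1 (0.446 and 1.6), followed by the Tle3 site.

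The sites farthest from genes were low. The 5 farthest had distances of 445 to 558 kb and values between 0.158 and 0.499. Of these, 4 were in the stricter peak set of neither library, and the site printed above, at chr2:101107701-101107880, was in the stricter set of both, with values of 0.386 and 0.499 and 2 footprints in each library. The 2 sites over 500 kb away, both between Cobl and Pom121l12 on chromosome 11, held no footprint.

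In sequence the remote sites resembled other intergenic sites and were far from promoters in base composition. Their windows of 150 bp around the midpoint had a median GC content of 52.0%, against 54% at intergenic sites up to 100 kb from a start, 65.3% at promoter-proximal peaks and 38.5% over the territory. The ratio of observed to expected CpG had a median of 0.197, against 0.259 and 0.762 in those classes, and 16.6% of remote sites had no CpG in the window. No soft-masked base was present in 56.5% of remote sites, a share close to the 56.6% of all shared peaks, but 85 sites (6.78%, 95% Wilson interval 5.52% to 8.31%) were over 50% repeat, against 2.72%.

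The sites made mostly of repeat were among the weakest. Their medians were 0.239 and 0.223, and 31.8% held a footprint in both libraries, against 0.457 and 0.61 and 71.1% for the other 1168 sites. Of the lowest 314 remote sites by value 18.2% were over 50% repeat, and of the highest 313 0.958%. The highest of them, chr17:4501121-4501300 beside Arid1b, had values of 0.952 and 1.83, followed by chr11:27620061-27620220 beside Gm6685 with 2.32 and 0.516 and by sites beside D630036H23Rik (0.642 and 1.31), Mmp16 (0.446 and 1.34) and Arhgap24 (0.511 and 1.06).

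The E-box CAGCTG was the most frequent of 20 consensus motifs searched on both strands. It was found in 322 remote sites (25.7%, 95% Wilson interval 23.4% to 28.2%), against 19.8% of other shared peaks, 22.1% of intergenic sites up to 100 kb, 12.2% of promoter-proximal peaks and 3.98% of all 150 bp windows tiled over the territory. The ratio to the territory was 6.45. Its share rose with height, from 16.6% of the lowest 314 remote sites to 27.5%, 26.8% and 31.9% of the 3 classes of 313 above them. Sites inside genes and over 100 kb from a start, which share the distance but not the intergenic position, had 25.8%.

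Among the 10 E-boxes of the form CANNTG, a set added after seeing the data, no other centre came near this ratio. CACGTG, which MYC and USF proteins bind, was at 1.93 times its territory share, and CAACTG and CAGATG at 1.86 each. CATATG was the lowest, at 0.252. CAGATG was present in 251 remote sites and in 13.5% of other shared peaks, and CACCTG in 11.8% of remote sites and 12.1% of other shared peaks.

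Sites with CAGCTG were higher in replicate 2 than sites without it. Median values in that library were 0.528 for the 931 sites without a copy, 0.716 for 273 with 1 copy 1.19 for 42 with 2 copies and 0.951 for 6 with 3, and the medians in replicate 1 were 0.43, 0.457, 0.473 and 0.43. The site with 4 copies, chr19:14180223-14180393, had values of 0.299 and 0.745, and its copies lay exactly 32 bp apart, as its printed sequence shows. Of 379 CAGCTG matches in remote sites, 23.7% and 30.9% lay under a footprint, against 14.9% and 16.5% of all bases of these windows, and 60 (15.8%) did so in both libraries. In other shared peaks the share in both was 17.0%.

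The highest non-repeat sites with CAGCTG under a footprint in both libraries included chr15:56278721-56278880, 372 kb from the start of Sntb1, a syntrophin gene of the dystrophin complex, with values of 2.78 and 4.34. The second was chr8:103825401-103825580, 276 kb from the start of Cdh5, with 2.68 and 4.21. The third, chr1:75798901-75799060 beside Slc4a3, an anion exchanger gene, had 2 copies and values of 1.33 and 3.26. All 3 had the higher value in replicate 2.

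Several other motifs were likewise more frequent than in other shared peaks. TTGGCA was found in 21.8% of remote sites, against 14.1% of other shared peaks and 7.22% of territory windows. TGANTCA of AP-1, the FOS and JUN family, was in 7.82%, against 5.19% and 4.53%, and GGAATG of TEAD in 11.3%, against 8.66% and 8.33%. TGTGGTT of RUNX was in 3.59%, against 2.55% and 3.18%. Classes more like the remote sites lay closer to them. In the order TTGGCA, AP-1, TEAD and RUNX, intergenic sites up to 100 kb had 16.4%, 6.53%, 10.1% and 3.1%. Sites inside genes over 100 kb from a start had 24.1%, 6.89%, 9.35% and 3.57%. These shares were thus not particular to remote sites. Of the AP-1 matches in remote sites 5.83% lay under a footprint in both libraries, and of the TTGGCA matches 25.2%, against 5.51% and 34.3% in other shared peaks. Library by library, 11.7% and 15.5% of AP-1 matches lay under a footprint, below the 14.9% and 16.5% of all bases of these windows. For TTGGCA the shares were 34.9% and 45.9%.

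Promoter motifs were rare. CCCCGCCC, which SP and KLF proteins bind, was found in 14 remote sites (1.12%), against 7.57% of other shared peaks and 19.6% of promoter-proximal ones. CCGGAAG of ETS factors was in 11 sites (0.878%), against 3.31% and 8.06%. The NRF1 sequence was in 0 of 1253, which by a limit of 3 counts allows a share of up to 0.239%, against 0.384% of other shared peaks. TGACGTCA, the cyclic AMP response element, was in 1 site. In the order CCCCGCCC, CCGGAAG, NRF1 and TGACGTCA, intergenic sites up to 100 kb had 2.91%, 1.59%, 0.145% and 0.368%. Sites inside genes over 100 kb from a start had 1.85%, 1.11%, 0% and 0.615%. Rarity of these motifs was thus not particular to remote sites, and the NRF1 limit of 0.239% does not separate them from these classes. In 39.5% of remote sites no searched motif was found, against 44.4% of all shared peaks.

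Several sequences common in AT-rich DNA were less frequent in remote sites than in the territory around them. TAATTA of homeobox factors was in 1.84% of sites and 7.02% of territory windows, TGATTNAT of HOX-PBX pairs in 2.0% and 3.38%, AGATAAG of GATA factors in 0.638% and 2.4%, CCATTGT of SOX factors in 1.92% and 3.02%, and TGTTTAC of FOX factors in 1.76% and 2.42%. Apart from the third, these sequences were still more frequent than in other shared peaks. In the same order, other shared peaks had 1.1%, 0.97%, 0.777%, 1.37% and 1.36%. Intergenic sites up to 100 kb had 1.55%, 1.37%, 0.947%, 1.71% and 1.57%. Sites inside genes over 100 kb from a start had 1.48%, 1.35%, 0.738%, 1.35% and 2.46%. The MEF2 sequence, bound by factors of muscle genes, was in 7 sites (0.559%) and 0.38% of windows, the MEF3 sequence TCAGGTTTC in 2 sites, the CArG box of SRF in 3, and the glucocorticoid response element in 4.

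**Figure D2:**
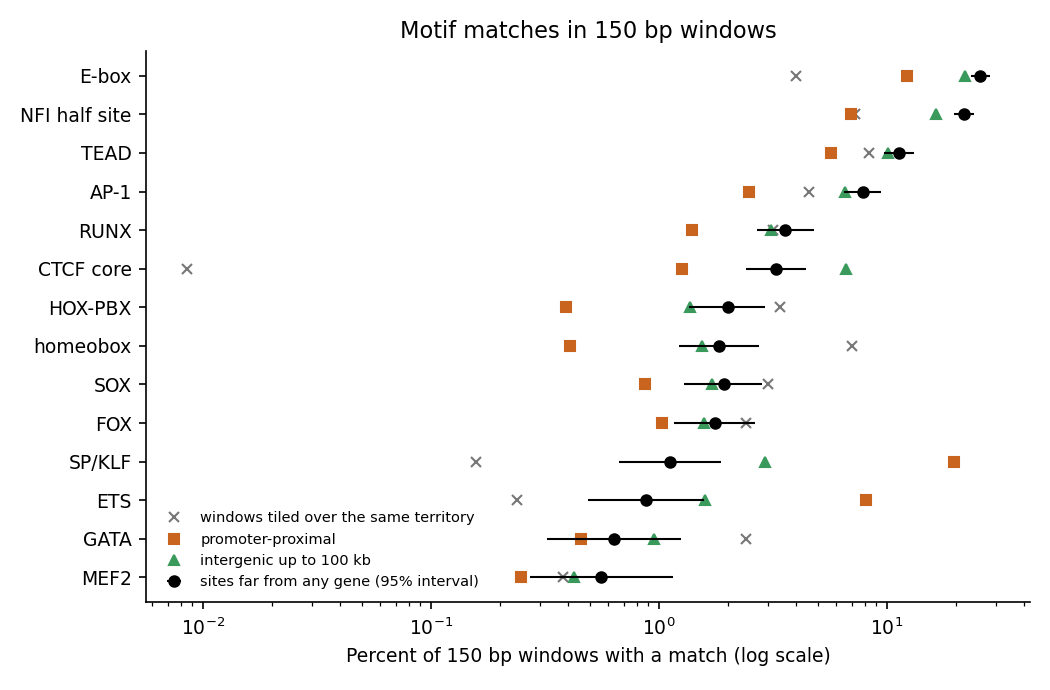
Percent of 150 bp windows with a match to 14 of the motifs (log axis) in remote sites (black circles, bars give the 95% Wilson interval), intergenic sites up to 100 kb from a start (triangles), promoter-proximal peaks (squares) and windows tiled over the territory (crosses). The E-box point sits at 25.7% against 3.98% in the territory, and the SP/KLF point at 1.12% against 19.6% at promoters.

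The full 14-letter CTCF core was found in 41 remote sites (3.27%, 95% Wilson interval 2.42% to 4.41%), against 4.45% of other shared peaks and 6.64% of intergenic sites up to 100 kb. Sites inside genes over 100 kb from a start had 2.58%. At replicate 1 values between 0.299 and 0.745, the share was 1.9% of remote sites and 1.93% of intergenic sites up to 100 kb. In that range it was 1.26% of sites inside genes and 0.476% of promoter-proximal peaks. In the territory the core was rare, in 94 of 1108066 windows (0.00848%). Sites with the core were higher than the rest in replicate 1 above all, with medians of 0.99 and 0.745, against 0.435 and 0.575 for the 1212 sites without it. They also lay below CTCF core sites near genes, whose medians at intergenic sites up to 100 kb were 2.27 and 1.77. The 21 core sites inside genes over 100 kb from a start had 0.963 and 0.728, close to the remote ones. None of the 41 was over 50% repeat.

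The CTCF core lay under a footprint in most sites that held it. In 36 of 41 sites (87.8%) a footprint covered at least 7 letters of the core in both libraries, against 93.7% over all shared peaks with a core. Footprints covered the centre of the core in 92.7% of sites in replicate 1 and 90.2% in replicate 2, and the position 60 bp away in 34.1% and 22%. That position lay on a separate, lower rise, as cover was 0% in both libraries at 34 bp before and 23 bp after the centre. The core pointed along the plus strand in 15 of the 41.

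**Figure D3:**
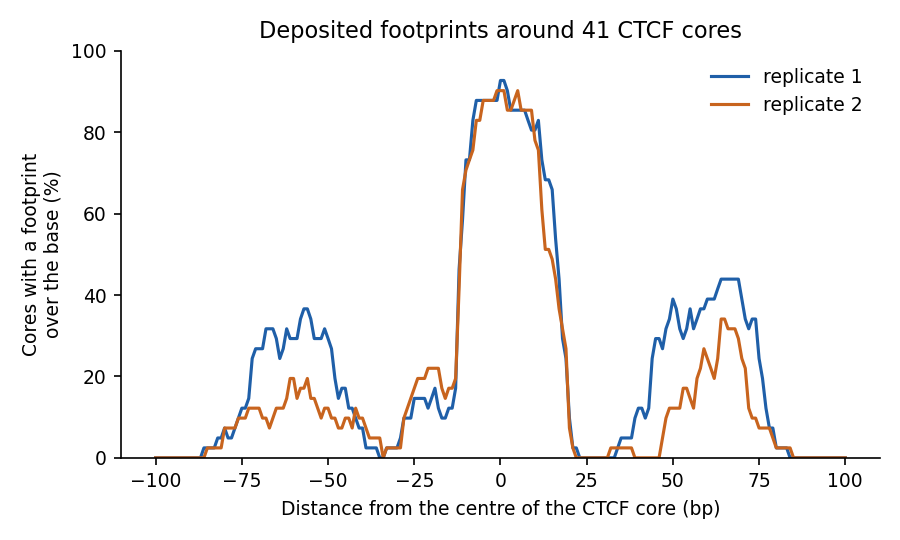
Percent of the 41 CTCF cores in remote sites with a deposited footprint over each base, by distance from the centre of the core in bp and oriented along it, in replicate 1 and replicate 2. Both lines reach their highest point over the core, at 92.7% and 90.2%. They fall to 0% at 34 bp before and 23 bp after its centre. Separate, lower rises follow on both sides, with 43.9% and 34.1% at 64 bp after the centre.

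The highest site with a core under a footprint in both libraries was chr14:72372021-72372200 beside Gm9195, with values of 3.26 and 2.41. The second was chr18:73122201-73122380, 451 kb from the start of Mex3c, with 2.75 and 1.47. The third and the fourth, chr2:178665121-178665280 and chr2:178574961-178575140, both lay in the desert between Cdh26 and Cdh4, with 2.5 and 1.56 and with 2.16 and 1.71. The remaining 4 of the 8 highest lay beside Cbln4, Igfbp7, Adamts18 and Rab28, with values between 1.07 and 2.53. All 8 had the higher value in replicate 1.

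Heights in the 2 libraries were less alike at remote sites than over all shared peaks, and about as alike as at sites inside genes at the same distance. Spearman's rho between the libraries was 0.769 over the 1253 sites, 0.772 over 813 sites inside genes over 100 kb from a start, and 0.893 over the 93861 shared peaks, and the lower and narrower range of the remote sites enters this value. The log2 ratio of replicate 2 to replicate 1 was centred on its median over all shared peaks, 0.23. After centring, 183 remote sites (14.6%) were over 2-fold apart, against a background of 8.23% of all shared peaks. Replicate 2 was the higher in 121 (9.66%, background 4.31%) and replicate 1 in 62 (4.95%, background 3.92%). Without centring the split was 17.2% and 2.55% of sites, against 9.87% and 1.3% of all shared peaks.

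The difference between the libraries moved with sequence. Of the 322 sites with CAGCTG, 231 were higher in replicate 2 after centring and 263 as deposited, and their median centred log2 ratio was 0.38, against -0.09 for the sites without it. Of the 41 sites with a CTCF core, 36 were higher in replicate 1 after centring and 32 as deposited, with a median of -0.56. The other shared peaks showed the same directions, with medians of 0.2 for CAGCTG and -0.61 for CTCF, so for these motifs the direction was not limited to remote sites. For CCATTGT of SOX factors and TGTGGTT of RUNX factors, picked out after their values were seen, the remote sites had medians of 0.49 (4 of 24 sites higher in replicate 1) and 0.26 (10 of 45), against -0.01 and 0.02 in other shared peaks, and that difference was not tested. Sites over 50% repeat were higher in replicate 1 in 60 of 85 after centring and in 49 as deposited. In the lists of other cell types, replicate 2 had more open promoters than replicate 1 among macrophage and lymphocyte genes (10 against 4 of 16) and neuronal genes (16 against 12 of 18), and fewer among endothelial genes (14 against 15 of 16). The part of cell composition, and that of depth, in the difference between the libraries was not tested.

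**Figure D4:**
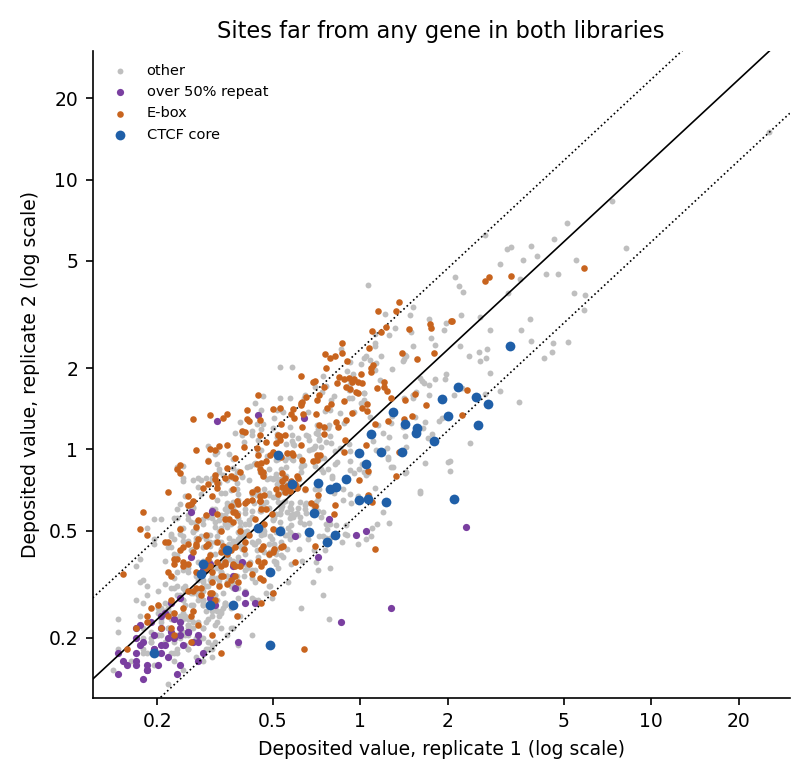
Deposited value of each of the 1253 remote sites in replicate 1 (x axis) and replicate 2 (y axis), both log scales, with a CTCF core, an E-box without such a core, over 50% repeat, or none of these. The solid line is the median ratio of all shared peaks and the dotted lines are 2-fold from it. E-box sites lie mostly above the line and CTCF core sites mostly below it.

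The 4 sites that differed most, named after their values were seen, were all over 50% repeat. The site chr3:56575641-56575780 beside Nbea, wholly soft-masked, had values of 1.27 and 0.258, with 5 footprints in replicate 1 and 0 in replicate 2. At chr11:27620061-27620220 and at chr3:13185641-13185780 beside Ralyl, also wholly soft-masked, the values were 2.32 and 0.516 and 0.859 and 0.229. The fourth, chr11:13914041-13914200, was 71.9% soft-masked and had 0.642 and 0.182. All 4 were on the side of replicate 1, with centred log2 ratios from -2.05 to -2.54.

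Remote peaks were found again in the other library less often than peaks in general, but not at equal height in most classes. Of 2207 replicate 1 peaks in the territory 56.8% were found in replicate 2, against 78.5% of all replicate 1 peaks, and of 2907 replicate 2 peaks 42.9% were found in replicate 1, against 64.2%. When all peaks of a library were put in 10 classes of equal size by height, 1026 of the 2207 fell in the lowest class, where 26.3% were found again, against 25% of all peaks. In the second class the shares were 66% and 54.1%, and in the fourth 93.0% and 75.4%. In replicate 2 they were 18.6% and 21.8% in the lowest class and 59.3% and 46.9% in the fourth. The stricter deposited set held 49.2% of remote sites in replicate 1 and 71.7% in replicate 2, and 45.3% in both, against 64.4% of all shared peaks in both.

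Remote sites were spread unevenly over the deserts. The territory fell into 1329 separate stretches, of which 537 held a remote site and 259 held exactly 1. Stretches without any made up 41% of the territory. The longest of these, 1060 kb between Dsel and Cntnap5a on chromosome 1, held none, and so did 894 kb between Rgs18 and Brinp3 on the same chromosome and 824 kb between Nxph1 and Ndufa4 on chromosome 6. At the other end, 9 stretches with 10 or more sites held 112 sites, 8.94% of the total in 1.57% of the territory.

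The fullest stretch was chr2:178560631-178921132, between the cadherin genes Cdh26 and Cdh4, with 19 sites in 361 kb, or 52.7 per Mb. Its values ran from 0.468 through a median of 0.924 to 2.8 in replicate 1, and from 0.364 through 1.06 to 4.02 in replicate 2. A footprint in both libraries was present in 17 of the 19, and 2 held a CTCF core and 5 an E-box. The median of this desert was thus above that of remote sites in general in both libraries.

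The second stretch lay between Pard3, a cell polarity gene, and Nrp1, which encodes a receptor of semaphorins and VEGF, with 15 sites in 481 kb and medians of 0.424 and 0.693. The third, between Bbs9 and Bmper, held 13 sites in 235 kb, from 0.326 to 4.06 in replicate 1 and from 0.376 to 5.22 in replicate 2, with both curated enhancer sites near Bmper among them. Beside Tshz3, a zinc-finger transcription factor gene, 12 sites lay in 177 kb, at 67.7 per Mb, with medians of 0.473 and 0.622.

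Beside Klf4, another zinc-finger factor gene, 12 sites lay in 189 kb. Their values ran from 0.223 through 0.609 to 2.06 in replicate 1 and from 0.34 through 0.98 to 3.03 in replicate 2, 11 of the 12 were higher in replicate 2 after centring, and 6 held an E-box. Between Cdh11 and Cdh5, which encodes the endothelial cadherin of blood vessels, 11 sites had medians of 0.549 and 0.64.

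The other stretches with 10 sites lay beside Adamts20, Lrig3 and Auts2. At least 6 stretches held 9 sites, and the densest of these 6 was taken as the tenth: it lay beside Qk, which encodes an RNA-binding regulator of splicing, and held 137 sites per Mb. All 9 of its sites were higher in replicate 2 after centring, and their values ran from 0.326 to 1.74 and from 0.634 to 2.92. The stretch beside Adamts20 held 9 sites with a footprint in both libraries and no E-box, and that beside Lrig3 held 5 E-box sites of 10.

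**Figure D5:**
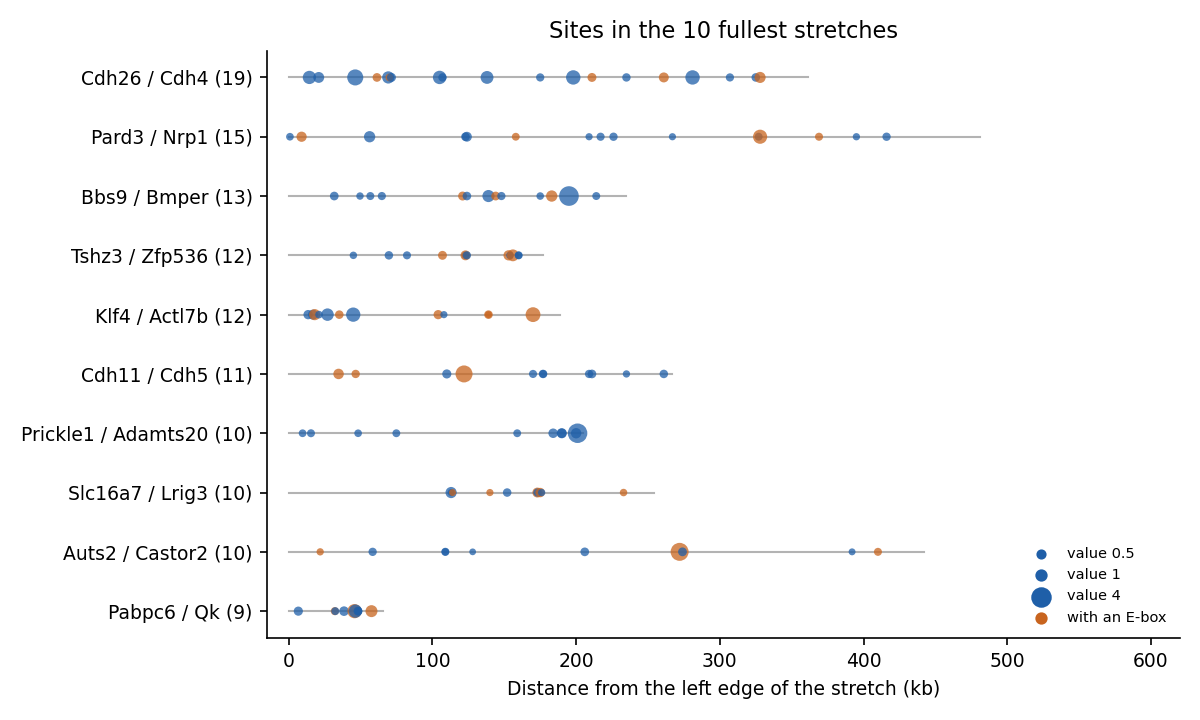
Position of the remote sites in the 10 fullest stretches of the territory, in kb from the left edge of each stretch (grey line), named by the protein-coding genes on both sides with the number of sites. Circle area grows with the geometric mean of both values, and orange marks sites with an E-box. The stretch between Cdh26 and Cdh4 holds 19 sites over 361 kb and that at Qk 9 sites in 65.7 kb.

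Many remote sites had close neighbours. Of the 1253, 461 (36.8%) lay within 10 kb of another, and 55 runs of 3 or more such sites held 189. Sites with a neighbour within 10 kb had medians of 0.506 and 0.669, against 0.402 and 0.522 for the 792 others. The longest run had 8 sites in 25.7 kb beside Qk, with medians of 0.615 and 0.939. Next were 7 sites in 31.6 kb beside Klf4 (medians 0.658 and 1.38), and 5 sites each beside Adamts20 in 17.5 kb, between Mpdz and Nfib in 17.3 kb, and beside Tshz3 in 7.1 kb. CTCF cores were present in 2.82% of sites with a neighbour and 3.54% of the others.

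By nearest protein-coding start, the 1253 sites belonged to 507 genes, 230 of which had 1 site. The nearest gene is a label of position, and which gene a site acts on was not measured. The 13 genes with 10 or more sites held 153 of them and were Cdh26 (19), Bmper (14), Auts2, Klf4, Map3k7 and Tshz3 (12 each), Cdh5 and Maf (11 each), and Adamts20, Flrt2, Lrig3, Pard3 and Sox9 (10 each). Of these, Flrt2, a neuronal adhesion gene, had the lowest replicate 1 median, at 0.261 against 0.924 for Cdh26. Map3k7, which encodes the TGF-β-activated kinase TAK1, had sites from 113 to 1150 kb away with medians of 0.487 and 0.478.

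Regulators of fibroblasts, tendon and cartilage had more remote sites than their share of all shared peaks. The 49 genes of this list were nearest to 72 remote sites (5.75%), against 1.26% of all shared peaks, and those sites had medians of 0.508 and 0.745. They came from 13 genes, and per Mb of territory nearest to the list the density was 26.4, against 7.53 overall. Long intergenic flanks bear on such shares, since a gene without a desert can have no remote site. Of the 72 sites, 12 each were nearest to Klf4 and Tshz3 and 11 to Maf, so few genes carried much of the excess. This list and the other gene lists were chosen with earlier results of these data known. Shares and densities of the lists are therefore descriptions, and no excess was tested.

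Maf, a basic leucine zipper factor gene, had 11 sites from 147 to 349 kb away with medians of 0.615 and 0.921, the highest being the AP-1 site printed above at 1.51 and 2.41. Sox9, the master regulator gene of cartilage, had 10 sites from 145 to 573 kb with medians of 0.563 and 0.775 and a highest site of 1.03 and 1.62. Sox6, a factor of cartilage that also represses slow-fibre genes in fast muscle, had 6 sites, the highest at 3.53 and 4.28, 144 kb from its start. Nr2f2, an orphan nuclear receptor gene, had 5 sites with medians of 0.239 and 0.352. Klf4 and Tshz3 had 12 each, as given above.

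Secreted signals and their inhibitors were nearest to 27 remote sites (2.15%), against 0.684% of all shared peaks, at 13.5 per Mb and with medians of 0.723 and 0.863. Gdf6, a BMP-family ligand of joint formation, had 8 of them from 280 to 451 kb away, the highest at 1.79 and 2.27. Bmp2, Dkk2, an inhibitor of Wnt signalling, and Fgf9 had 4 each, with medians of 0.75 and 0.766, 0.734 and 1.25, and 0.514 and 0.971. These last 3 genes had fewer than 5 sites and were named after their values were seen.

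Genes of the myofibre itself had almost no remote sites. The 20 sarcomere genes had none, and no part of the territory was nearest to them. The 14 myogenic regulators had 1, at 0.511 and 0.81, 611 kb from the start of Mef2c, with 0.306 Mb of territory nearest to the list. Limb patterning genes had 10 sites (0.798%, against 0.472% of all shared peaks) at 7.81 per Mb, a density close to that of the whole territory. The endothelial list had 11 (0.878%, against 0.132% of all shared peaks), all of them at Cdh5, at 34.8 per Mb of the 0.316 Mb nearest to the list, which was the highest density of the 10 lists. The macrophage and lymphocyte list and the neuronal list had 0 each, with 0.0 and 0.112 Mb of territory. The hepatocyte list had 1, beside Cps1, with 0.402 and 1.16.

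Neuronal adhesion genes, a list chosen because its members border deserts, had many remote sites that were sparse and low. The 67 genes were nearest to 65 sites (5.19%, against 0.886% of all shared peaks), in 22.4 Mb of territory at 2.91 per Mb. Their medians of 0.277 and 0.393 lay below those of all remote sites, and 55.4% held a footprint in both libraries, against 68.4%. Flrt2 had 10 sites from 200 to 1500 kb away with medians of 0.261 and 0.563, and Epha4, an ephrin receptor gene, had 6 with 0.264 and 0.449. Some sites of the list were higher. The highest was the site 2140 kb from Cdh20 named above, and the highest beside Cdh11 had 1.57 and 2.17.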

How the data were processed

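DNase-seq was analysed in 2 libraries of 1 group, taken from the labels. The deposited peak values are a signal made by the authors, with no scale stated in the labels. Per the file values they step evenly (steps 0.00544 and 0.00587, all values whole within 0.05 of a step), as counts scaled by 1 factor per library would. The deposited per-position files list an FDR, a p-value type of number, under 0.05, and the footprint files carry a constant 0.01, so only footprint positions were used. Per the deposited sample notes, each library was processed alone from alignments to mm10. The aligner and the callers were not given in the sources used here. Reads of CAST alleles were not analysed separately.

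The wider of the deposited peak sets was used, and a shared peak took the highest overlapping replicate 2 value. GENCODE M21 genes, pseudogenes included, and GRCm38 sequence from RefSeq gave distance, repeats and the 20 motifs, searched in 150 bp around each midpoint. Intervals are 95% Wilson intervals on shares of sites and cover counting error only. They treat sites as independent, although 36.8% of remote sites lay within 10 kb of another and all came from the same 2 libraries. Tags can be PCR copies, which the counting error given for tags leaves out. A called difference was over 2-fold after centring. Overlap, distance and motif functions were checked on simulated data with known answers. Python 3.11.15, numpy 2.4.6, pandas 2.3.3, scipy 1.17.1 and matplotlib 3.10.9 were used.

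Named by rule were the 12 highest sites at most 50% soft-masked and the 5 highest above that, the 10 fullest stretches, the 5 farthest sites, the 8 highest with a footprinted CTCF core, the 5 with most footprints, the 5 widest, the 10 genes nearest to most sites, and each list gene nearest to 5 or more. Printed sequences, curated enhancers and RefSeq starts were chosen later, after values were seen. The sites and the 10 gene lists were chosen with earlier results of these data known. Gene models, distance, peak set, overlap, repeats, search window, scaling and each library were varied.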

Additional observations from a re-analysis of the deposited data

How the results depend on the processing

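The number of remote sites moved from 1253 to 568 with the stricter peak set, 4146 over 50 kb and 218 over 200 kb from every start, 2397 without pseudogenes, 8825 with protein-coding models alone, and 2207 to 2907 with 1 library left out. The median value (mean of the 2 library medians, 0.513) was 0.885 with the stricter set and 32.8 as a percentile of all peaks. With 1 library left out, the median of the remaining library was 0.299 to 0.34. The share with a footprint (mean of both libraries, 78.9%) was 96.0% with the stricter set, 84.9% with 50% mutual overlap, 83.5% over 50 kb, 73.2% over 200 kb, 79.7% without pseudogenes, 83.0% with protein-coding models, 81.2% without repeat-rich sites, 80.2% with replicate 2 peaks, and 60.9% to 63.5% with 1 library left out. The CTCF core share was 5.46% with the stricter set, 5.05% over 200 kb and 1.62% to 1.99% with 1 library left out. The repeat-rich share was 2.29% with the stricter set, 5.44% with 50% mutual overlap, 5.09% over 50 kb, 11% over 200 kb, 4.76% with protein-coding models, and 12.8% to 18.3% with 1 library left out. The share of sites over 2-fold apart was 40.1% at 1.5-fold (32.6% of all shared peaks) and 19.7% without centring (11.2%). With repeat-rich sites left out, an alternative added after seeing the data, it was 14.7% (8.08% of all shared peaks). The cause of the shifts was not tested. No paired analysis was possible because there was only 1 group. With 2 libraries no group reached the size at which a stray sample can be judged, and the median site rests on 82 and 99 tags if 1 step is 1 tag.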
